A study of Mus musculus with 9 samples.

Results

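The regulators of G protein signalling (RGS proteins) considered here are encoded by 10 genes of 25059 gene identifiers in the deposited tables. They are Rgs2, Rgs3, Rgs4, Rgs5, Rgs16, Rgs10, Rgs12, Rgs14, Rgs17 and Rgs19. They were chosen by gene symbol, and all 10 symbols were found, each under 1 gene identifier and on 42 transcript rows in all. Their RNA was measured by RNA-seq in granulosa cells, the somatic cells that line the ovarian follicle and surround the oocyte. All groups were Kunming mice at postnatal day 21 that were primed with 5 IU of PMSG, a gonadotropin from pregnant mare serum that makes follicles grow. The 0 h group is the baseline for hCG, the chorionic gonadotropin that stands in for the ovulatory LH surge. In the 1 h and 6 h groups, cells were taken 1 and 6 h after 5 IU of hCG, itself given 48 h after PMSG. Each time has 3 libraries, 9 in all. Nothing in the labels says that the libraries of a time are separate animals or pools, so p-values measure the spread between libraries, which may be technical. Neither 1 h nor 6 h has a library without hCG among those used here. The effects of hCG, of time of day and of the longer time since PMSG cannot be told apart.

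Heterotrimeric G proteins carry signals from membrane receptors while their alpha subunit holds GTP. RGS proteins bind the active alpha subunit through a shared RGS domain and speed up GTP hydrolysis, which ends the signal of the alpha subunit and of the released beta-gamma dimer. The LH receptor of granulosa cells signals mainly through Gs, which raises cyclic AMP, and also through Gq. Subfamilies differ in partners. The small R4 proteins (Rgs2, Rgs3, Rgs4, Rgs5 and Rgs16) act on Gi and Gq subunits, with a preference of Rgs2 for Gq. The R12 proteins (Rgs10, Rgs12 and Rgs14) act on Gi subunits, and the RZ proteins (Rgs17 and Rgs19) on Gi and Gz subunits.

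Transcription start regions of 9 of the 10 genes, 13 in all, were found in RefSeq (GRCm38.p6); Rgs14 was not matched. The 250 bases upstream of the start are printed for the 3 genes whose RNA moved most after hCG. Capitals mark TGACG on either strand (CGTCA on the printed strand), the core of the cyclic AMP response element. Rgs2 (chr1:144004150-144004399, minus strand), Rgs3 at the first of its listed starts (chr4:62559597-62559846, plus strand) and Rgs12 at the first of its listed starts (chr5:34949198-34949447, plus strand) read 5′ to 3′:
Rgs2: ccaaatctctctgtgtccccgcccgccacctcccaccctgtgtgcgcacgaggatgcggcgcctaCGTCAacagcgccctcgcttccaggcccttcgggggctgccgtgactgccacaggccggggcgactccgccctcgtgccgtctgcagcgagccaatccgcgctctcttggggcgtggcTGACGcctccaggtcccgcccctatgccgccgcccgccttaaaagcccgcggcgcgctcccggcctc
Rgs3: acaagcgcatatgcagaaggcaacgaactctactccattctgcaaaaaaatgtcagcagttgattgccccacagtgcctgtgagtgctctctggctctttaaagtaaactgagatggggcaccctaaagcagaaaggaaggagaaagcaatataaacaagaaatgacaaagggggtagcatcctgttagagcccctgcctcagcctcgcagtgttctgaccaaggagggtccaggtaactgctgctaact
Rgs12: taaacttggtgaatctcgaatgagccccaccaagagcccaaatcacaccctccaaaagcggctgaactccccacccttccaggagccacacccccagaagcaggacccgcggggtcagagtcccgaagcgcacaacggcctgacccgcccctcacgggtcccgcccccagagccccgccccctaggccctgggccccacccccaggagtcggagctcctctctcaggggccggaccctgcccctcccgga

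The Rgs2 sequence held TGACG at 185 bases upstream on the strand opposite to the printed one and at 67 bases upstream on the printed strand. At least 1 such core was present in 20.8% of the 32841 mouse start regions in the table, and 2 or more in 5.02%. The other motifs searched on both strands, over 250 bases before to 50 after the start, were the full element TGACGTCA (1.79% of start regions; it contains TGACG), the AP-1 site TGANTCA (7.81%), the NR4A site AAAGGTCA (1.51%) and the RUNX site TGTGGT (16.8%). None of these letters stood in the Rgs2 window, and none of the 5 motifs in the printed Rgs3 and Rgs12 windows. Elsewhere among the members, Rgs4 held TGACG at 236 and 141 bases upstream, the second start of Rgs12 held TGACG at 82 and TGANTCA at 22 bases upstream, and Rgs17 held TGANTCA at 122 bases upstream. These matches are descriptions of letters, and no binding was measured.

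The values are FPKM, fragments scaled by transcript length and by the mapped fragments of the library, so levels of different genes can be compared per length; sequencing depth is unknown. The 9 libraries listed 13587 to 13862 genes at 1 FPKM or more and summed to 491920 to 570986 FPKM. Correlations of log2(FPKM + 1) were 0.982 to 0.988 within groups and 0.874 to 0.972 between groups. All 10 granulosa markers (Fshr, Cyp19a1, Inha and others) passed the filter of at least 1 FPKM in 3 libraries. Their summed level was 9965 to 10609.8 FPKM at 0 h, 9885 to 14838 FPKM at 1 h and 3799.6 to 4181 FPKM at 6 h, and 9 of the 10 fell at 6 h against 0 h. Oocyte markers rose at 6 h against 0 h (9 of 9), with sums of 42.5 to 67.4 FPKM at 0 h, 55.7 to 67.0 FPKM at 1 h and 76.8 to 115 FPKM at 6 h. Theca and stroma markers (8 of 9 tested, 3 lower at 6 h against 0 h) summed to 169.8 to 259, 223 to 360.5 and 84.6 to 104 FPKM at 0, 1 and 6 h. Cyp17a1 alone, the largest part of the 0 h sum, averaged 123, 193 and 21.9 FPKM. Erythroid markers (4 of 5 tested, 2 lower) summed to 133 to 202, 89.7 to 204 and 69.5 to 133 FPKM, and endothelial markers (10 of 10 tested, 4 higher) to 31.8 to 41.7, 33.6 to 41.9 and 37.2 to 53.0 FPKM. These counts stand beside 28.8% of all genes tested called higher and 27.9% called lower at 6 h against 0 h. No marker of any of these lists was at 0 in all libraries. In bulk RNA, fewer cells of a type and less RNA per cell cannot be told apart. The part of these markers in the RGS results was not tested.

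At 1 h, Rgs2 rose strongly and Rgs19 fell slightly, while the other RGS genes tested did not pass the test. The Rgs19 call at 1 h held in 12 of 18 alternatives. At 6 h, Rgs2 was still high, Rgs3 had fallen and Rgs12 had risen. Of the 10 genes, 6 passed the filter and were tested (Rgs2, Rgs3, Rgs5, Rgs10, Rgs12 and Rgs19). Changes are differences of log2(FPKM + 1), tested with limma in 1 fit of all 9 libraries and 14535 genes, with Benjamini-Hochberg adjusted p below 0.05 as the call. Such differences understate changes of low genes. For 1 h against 0 h, 1 of the 6 was called higher and 1 lower, beside 15.7% of all genes called (9.68% higher and 5.98% lower). For 6 h against 0 h, 2 were called higher and 2 lower, beside 56.6% of all genes (28.8% higher and 27.9% lower). For 6 h against 1 h, 1 was called higher and 1 lower, beside 53.5% of all genes (26.7% higher and 26.9% lower). The median change of the 6 tested genes was -0.09, 0.03 and -0.09 in the 3 comparisons, beside -0.00 for all genes in each. The 0 h libraries are shared by the first and second comparison, and likewise the 1 h and 6 h libraries by the others.

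**Figure D1:**
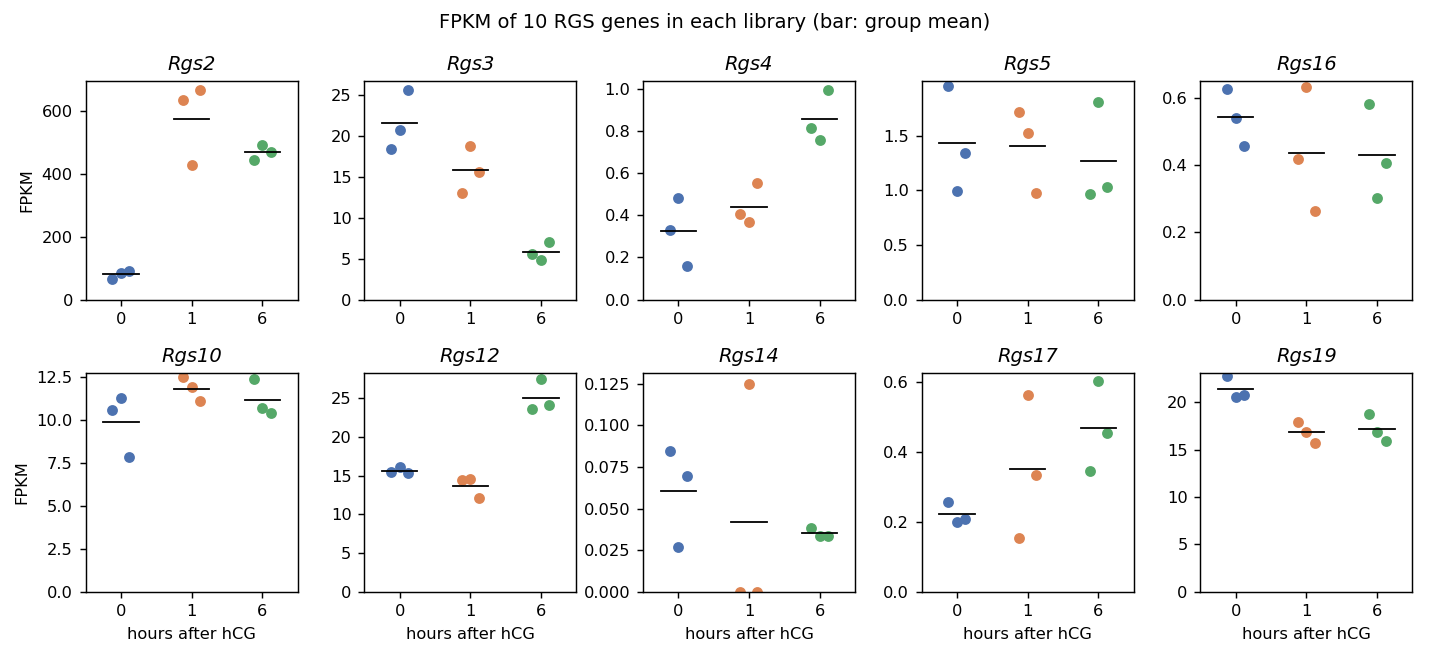
FPKM (vertical axis, a separate linear scale for each gene, starting at 0) of the 10 RGS genes at 0, 1 and 6 h after hCG (horizontal axis). Points are the 3 libraries of a time and bars their mean; Rgs2 sits at 66.8 to 90.5 FPKM at 0 h and at 426 FPKM or more in every later library.

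Rgs2, an R4 protein with a preference for Gq that also binds adenylyl cyclases, lies on chr1:143999338-144004161, minus strand (GRCm38, GENCODE M21). Its level was 66.8, 83.6 and 90.5 FPKM at 0 h, 634, 426 and 664 FPKM at 1 h, and 442, 492 and 470.1 FPKM at 6 h. Every library at 1 h and at 6 h stood above every library at 0 h, and replicate 2 was the lowest of the 1 h libraries. Rgs2 averaged 574 ± 129.7 FPKM at 1 h and 80.3 ± 12.2 FPKM at 0 h (SD, n = 3 each), 7.16-fold higher at 1 h. The log2 change was 2.81 ± 0.17 (SE; limma adjusted p = 4.80e-06). At 6 h it averaged 468 ± 24.8 FPKM, 5.83-fold the 0 h mean, with a log2 change of 2.54 ± 0.17 (adjusted p = 1.41e-06). Between 6 h and 1 h the change was -0.27 on the log2 scale (95% interval -0.64 to 0.10, limma adjusted p = 0.197), and the groups overlapped. Without replicate 2 of 1 h, that difference became -0.47 (adjusted p = 0.0102), a call of lower at 6 h.

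Rgs2 has 2 transcript rows, which the tables do not name. They held 74.4% and 25.6% of its mean level. The larger averaged 423 ± 91.1 FPKM at 1 h and 56.7 ± 6.01 FPKM at 0 h, and the smaller 152 ± 39.1 FPKM at 1 h and 23.6 ± 6.29 FPKM at 0 h (SD, n = 3 each). In a limma fit of all 24544 rows that passed the same filter, both rows rose at 1 h (log2 changes 2.86 and 2.63, adjusted p = 2.28e-05 and 0.000363). Both were also higher at 6 h than at 0 h (2.63 and 2.24, adjusted p = 5.77e-06 and 0.00014). The share of all rows called was 7.29% for 1 h against 0 h, 38.4% for 6 h against 0 h and 35.7% for 6 h against 1 h. Both rows therefore share the direction of the summed gene.

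**Figure D2:**
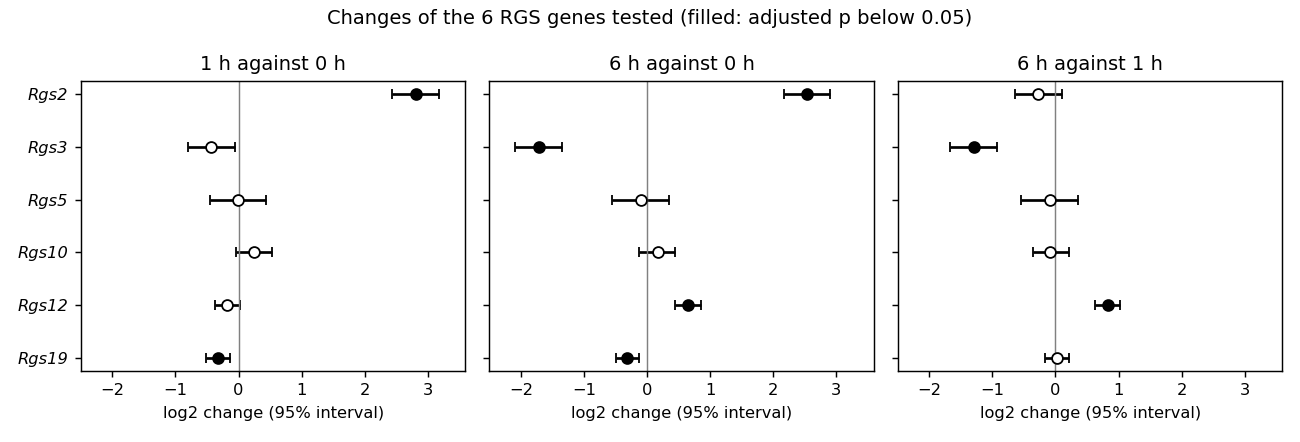
Log2 change of log2(FPKM + 1) (horizontal axis) with its 95% interval for the 6 RGS genes tested (rows), for 1 h against 0 h, 6 h against 0 h and 6 h against 1 h. Filled points have a limma adjusted p below 0.05: Rgs2 is at 2.81 and 2.54 against 0 h, Rgs3 at -1.72 and Rgs12 at 0.65 for 6 h against 0 h.

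Rgs3, an R4 protein that acts on Gi and Gq and that also has long forms with a PDZ domain, moved the other way. The gene spans chr4:62559847-62704001 on the plus strand. Its level was 18.4, 20.7 and 25.7 FPKM at 0 h, 13.0, 18.8 and 15.6 FPKM at 1 h, and 5.58, 4.87 and 7.03 FPKM at 6 h. All 6 h libraries were below all earlier ones, while the 0 h and 1 h libraries overlapped. Rgs3 averaged 5.83 ± 1.10 FPKM at 6 h and 21.6 ± 3.73 FPKM at 0 h (SD, n = 3 each), 0.270 of the 0 h mean, with a log2 change of -1.72 ± 0.17 (SE; limma adjusted p = 1.74e-05). Against 1 h, where it averaged 15.8 ± 2.94 FPKM, the change at 6 h was -1.30 ± 0.17 (adjusted p = 0.000138). For 1 h against 0 h it was -0.43 ± 0.17 and missed the threshold (adjusted p = 0.111); after each library was scaled to the mean FPKM sum it was -0.58 (adjusted p = 0.0399), a value that includes a shift of the median of all genes to -0.14.

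Rgs3 has 8 rows, 5 of which passed the filter. The 3 largest, with 33.8%, 31.1% and 19.6% of the gene's mean, all fell at 6 h against 0 h, by between 1.39 and 1.57 on the log2 scale (limma adjusted p = 0.000384, 0.000747 and 0.000551). The fourth, at 0.103 ± 0.145 FPKM at 6 h and 1.22 ± 0.760 FPKM at 0 h (SD, n = 3 each), missed the threshold there (adjusted p = 0.0535) but was lower at 6 h than at 1 h (adjusted p = 0.0279). The fifth had log2 changes between -0.41 and -0.09 and no call in any comparison. The span of the antisense gene Gm11209, listed at 0 to 1.21 FPKM, overlaps that of Rgs3. Whether their exons overlap was not checked. The labels' protocols give no strand, so reads from any shared stretch may not be told apart. Of the marker sums given above, those of granulosa and of theca and stroma were also lower at 6 h than at 0 h. Erythroid sums of these times met at 133 FPKM, endothelial sums overlapped and oocyte sums were higher at 6 h. The part of these markers in the Rgs3 change was not tested.

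Rgs5, an R4 protein widely used as a pericyte marker, lies on chr1:169655501-169695813, plus strand. It was near the filter in every group, at 1.95, 0.998 and 1.34 FPKM at 0 h, 1.72, 1.52 and 0.974 FPKM at 1 h, and 0.968, 1.81 and 1.03 FPKM at 6 h. The groups overlapped. Its log2 change was -0.01 for 1 h against 0 h (95% interval -0.46 to 0.44, limma adjusted p = 0.986) and -0.10 for 6 h against 0 h (-0.55 to 0.35, adjusted p = 0.695). The interval for 6 h against 1 h was -0.54 to 0.36 (adjusted p = 0.726). The 12 other pericyte and smooth muscle markers, Pdgfrb and Acta2 among them, summed to 41.5 to 59.2, 57.6 to 62.8 and 44.7 to 48.0 FPKM at 0, 1 and 6 h. Of the 9 tested, none was called at 1 h against 0 h (1 higher and 2 lower at 6 h against 0 h). Over all genes, 15.7% were called at 1 h against 0 h. At 6 h against 0 h, 28.8% were higher and 27.9% lower.

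Rgs4 and Rgs16, R4 proteins that act on Gi and Gq, stayed under 1 FPKM in all 9 libraries and did not pass the filter. Rgs4 (chr1:169741477-169747642, minus strand) was at 0.332, 0.482 and 0.158 FPKM at 0 h, 0.405, 0.367 and 0.551 FPKM at 1 h, and 0.812, 0.757 and 0.995 FPKM at 6 h. Each 6 h library exceeded each earlier one. In the limma fit without the filter, Rgs4 was called higher at 6 h than at 0 h (log2 change 0.49 ± 0.10 SE, adjusted p = 0.00488) and than at 1 h (0.36, adjusted p = 0.0224). Of the 21422 genes in that fit, 4531 were called higher and 4299 lower at 6 h against 0 h. Rgs16 (chr1:153740349-153745468, plus strand) ranged from 0.262 to 0.631 FPKM over all libraries, and its groups overlapped. The antisense gene Gm28513 overlaps Rgs16 and was listed at 0 to 0.735 FPKM. It averaged 0.246, 0.317 and 0.0646 FPKM at 0, 1 and 6 h, beside 0.541, 0.437 and 0.429 FPKM for Rgs16. Exon overlap of this pair was not checked either, and reads from any shared stretch may not be told apart.

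Among the R12 genes, Rgs12 rose late and Rgs10 passed no test. Rgs12, a large protein that adds PDZ, PTB, Ras-binding and GoLoco domains to its RGS domain, spans chr5:34949445-35039644, plus strand. Its level was 15.5, 16.1 and 15.3 FPKM at 0 h, 14.5, 14.6 and 12.1 FPKM at 1 h, and 23.7, 27.5 and 24.1 FPKM at 6 h. The 6 h libraries were all above the others, and the 1 h libraries were all just below the 0 h ones. Rgs12 averaged 25.1 ± 2.07 FPKM at 6 h and 15.6 ± 0.411 FPKM at 0 h (SD, n = 3 each), 1.60-fold higher, with a log2 change of 0.65 ± 0.09 (SE; limma adjusted p = 0.000205). Against the 1 h mean of 13.7 ± 1.44 FPKM it was 1.83-fold higher at 6 h (log2 change 0.83 ± 0.09, adjusted p = 4.90e-05). The change at 1 h against 0 h was -0.18 (95% interval -0.38 to 0.02, limma adjusted p = 0.215). It became -0.33 (adjusted p = 0.0347) after scaling to the mean FPKM sum, a value that includes the shift of all genes to -0.14.

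Of the 11 rows of Rgs12, 3 passed the filter. The largest held 68.5% of the gene and averaged 17.2 ± 0.467 FPKM at 6 h and 10.7 ± 0.960 FPKM at 0 h (SD, n = 3 each; log2 change 0.65, limma adjusted p = 0.000549). A minor row with 4.55% of the gene also rose, to 1.55 ± 0.252 FPKM at 6 h, against 0.493 ± 0.248 FPKM at 0 h (log2 change 0.78, limma adjusted p = 0.0337). The row between them in size changed by 0.29 (adjusted p = 0.529). The span of the antisense gene Gm43791 overlaps that of Rgs12. Their exons were not compared, and reads from any shared stretch may not be told apart. The level of Gm43791 is not given here. Of the marker sums given above, those of oocytes were also higher at 6 h than at 0 h, while the endothelial sums overlapped. Granulosa sums and theca and stroma sums were lower. The part of these markers in the Rgs12 change was not tested.

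Rgs10, a small Gi-directed protein with little beyond its RGS domain, lies on chr7:128373621-128418758, minus strand. It was at 10.6, 11.3 and 7.84 FPKM at 0 h, 12.5, 11.9 and 11.1 FPKM at 1 h, and 12.4, 10.7 and 10.4 FPKM at 6 h. Groups overlapped in each comparison. Its log2 change was 0.25 for 1 h against 0 h (95% interval -0.04 to 0.53, limma adjusted p = 0.231), 0.17 for 6 h against 0 h (-0.12 to 0.45, adjusted p = 0.292) and -0.08 for 6 h against 1 h (-0.36 to 0.21, adjusted p = 0.632). Rgs14 (chr13:55369732-55384687, plus strand), which combines RGS, Ras-binding and GoLoco domains, was at 0 to 0.125 FPKM and was listed at 0 in replicates 1 and 3 of 1 h.

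The RZ gene Rgs19, whose product is also called GAIP and binds Gi subunits, lies on chr2:181688419-181693977, minus strand. Its level was 22.7, 20.5 and 20.8 FPKM at 0 h, 17.9, 16.8 and 15.7 FPKM at 1 h, and 18.7, 16.8 and 15.9 FPKM at 6 h. All 0 h libraries were above all later ones, and the 1 h and 6 h libraries overlapped. Rgs19 averaged 16.8 ± 1.08 FPKM at 1 h and 21.4 ± 1.20 FPKM at 0 h (SD, n = 3 each), with a log2 change of -0.33 ± 0.08 (SE; limma adjusted p = 0.0258). At 6 h it averaged 17.1 ± 1.42 FPKM, with a change against 0 h of -0.31 ± 0.08 (adjusted p = 0.0102). The difference between 6 h and 1 h was 0.02 (95% interval -0.16 to 0.21). The 1 h call was lost without replicate 1, 2 or 3 of 0 h or replicate 3 of 1 h (adjusted p = 0.0906, 0.0523, 0.0593 and 0.0919). It was also lost for the largest row alone (-0.08, adjusted p = 0.704), as was the 6 h call (-0.13, adjusted p = 0.376).

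The rows of Rgs19 did not move together. Of 8 rows, 5 passed the filter. The largest, with 45.3% of the gene, averaged 8.24 ± 0.658 FPKM at 1 h and 8.80 ± 0.984 FPKM at 0 h (SD, n = 3 each). The second was at 8.38, 6.99 and 5.01 FPKM at 0 h, 3.80, 4.41 and 4.38 FPKM at 1 h, and 4.14, 2.38 and 2.76 FPKM at 6 h. It was lower at 6 h than at 0 h (log2 change -0.93, limma adjusted p = 0.00676). The third was at 3.59, 3.47 and 3.53 FPKM at 0 h, 1.98, 1.45 and 1.25 FPKM at 1 h, and 3.63, 3.78 and 4.16 FPKM at 6 h. It fell at 1 h (-0.83, adjusted p = 0.00855) and was higher at 6 h than at 1 h (0.93, adjusted p = 0.00101), while at 6 h against 0 h it differed by 0.10 (adjusted p = 0.614). The remaining rows that were tested had no call. FPKM of such rows are estimates that divide shared reads between transcripts.

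**Figure D3:**
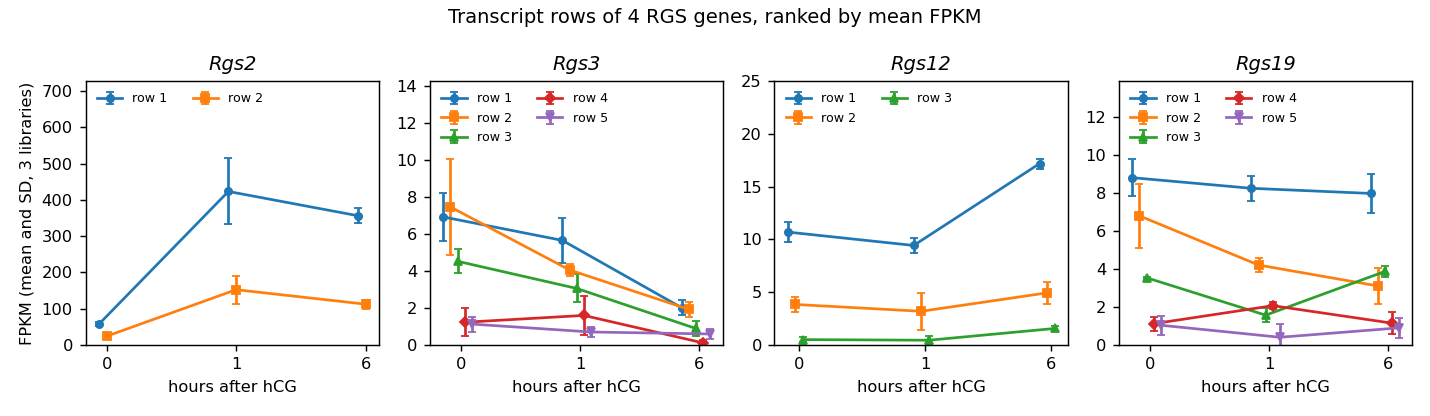
FPKM (vertical axis, linear, from 0) of the transcript rows of Rgs2, Rgs3, Rgs12 and Rgs19 that passed the filter, at 0, 1 and 6 h after hCG (horizontal axis). Points are means and bars SDs of 3 libraries, rows are ranked by mean level, and bars that would reach below 0 are cut there; row 3 of Rgs19 is at 3.53, 1.56 and 3.86 FPKM.

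Rgs17 (chr10:5825663-5922400, minus strand), the other RZ gene here and a regulator of Gz and Gi, was at 0.155 to 0.604 FPKM and did not pass the filter. It averaged 0.222, 0.351 and 0.468 FPKM at 0, 1 and 6 h. In the limma fit without the filter, its change at 6 h against 0 h was 0.26 (adjusted p = 0.0927).

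Among the 10 members, the makeup of the summed RNA shifted towards Rgs2. The 10 genes summed to 151 ± 12.8 FPKM at 0 h, 635 ± 126 FPKM at 1 h and 530.3 ± 24.8 FPKM at 6 h (SD, n = 3 each). Rgs2 made up 48.6% to 55.7% of that sum at 0 h, 86.7% to 92.1% at 1 h and 87.5% to 88.6% at 6 h. Without Rgs2 the sum was 71.1 ± 0.702 FPKM at 0 h, 60.9 ± 4.35 FPKM at 1 h and 62.2 ± 1.65 FPKM at 6 h. Rgs2 was the most abundant member in all 9 libraries. At 0 h it was followed by Rgs3 and Rgs19, whose libraries overlapped, then by Rgs12 and Rgs10. At 1 h the libraries of Rgs3 overlapped those of Rgs19 and of Rgs12. At 6 h the order was Rgs2, Rgs12, Rgs19, Rgs10, Rgs3, Rgs5 and Rgs4 in all 3 libraries; the 6 h ranges of Rgs19 and Rgs10, and of Rgs10 and Rgs3, did not overlap. Rgs14 was the lowest member in every library. These shares and ranks leave out the 11 further RGS genes described below. With those added, the 0 h sums were 155, 178 and 187 FPKM, beside 137, 154 and 162 FPKM for the 10 members.

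**Figure D4:**
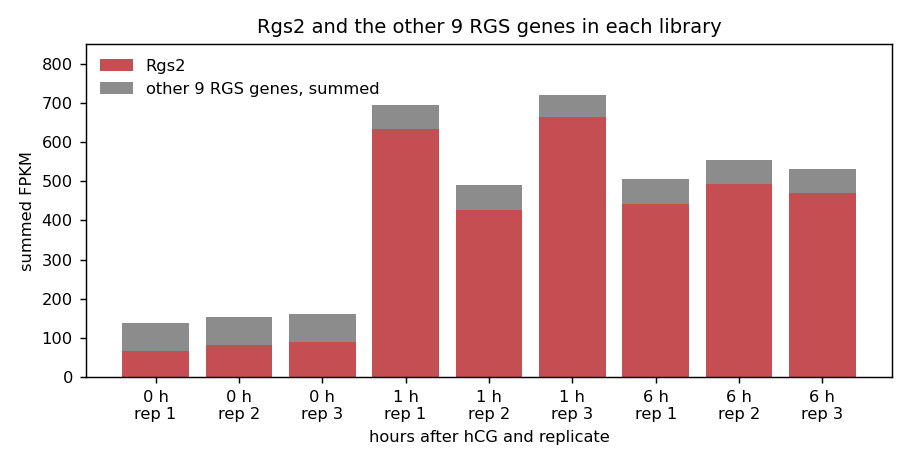
Summed FPKM (vertical axis, from 0) of the 10 RGS genes in each of the 9 libraries, with Rgs2 in red and the other 9 genes in grey. The grey part is 56.6 to 71.9 FPKM in every library, while the red part is 66.8 to 90.5 FPKM at 0 h and 426 to 664 FPKM later.

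Of 11 further RGS genes, 6 passed the filter, and all their calls were at 6 h. Against 0 h, 1 was higher and 4 lower, and against 1 h, 1 was higher and 3 lower, with none at 1 h against 0 h. Over all genes, 56.6% were called for 6 h against 0 h, 53.5% for 6 h against 1 h and 15.7% for 1 h against 0 h. The median log2 change of the 6 further genes tested was -0.22, -0.59 and -0.56 for 1 h against 0 h, 6 h against 0 h and 6 h against 1 h. In the R7 subfamily, whose proteins pair with the G beta subunit Gnb5, Rgs6 rose to 6.92 ± 1.94 FPKM at 6 h, against 1.56 ± 0.683 FPKM at 0 h (SD, n = 3 each; log2 change 1.64, limma adjusted p = 0.000284). Rgs11 of the same subfamily fell to 1.81 ± 0.418 FPKM at 6 h, against 8.54 ± 1.72 FPKM at 0 h (log2 change -1.76, limma adjusted p = 6.33e-05); the largest of its rows alone gave -0.73 (adjusted p = 0.394). Rgs7 averaged 1.31 ± 0.241 FPKM at 6 h and 2.07 ± 0.597 FPKM at 0 h (limma adjusted p = 0.0456), a call that held in 6 of 17 alternatives. Rgs9 was at 2.25, 5.73 and 1.52 FPKM at 0 h and had no call. Gnb5 averaged 10.8 ± 0.931 FPKM at 6 h and 12.3 ± 0.102 FPKM at 0 h (limma adjusted p = 0.146).

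The R4 gene Rgs13, known from B cells and mast cells, averaged 0.885 ± 0.367 FPKM at 6 h and 5.33 ± 3.63 FPKM at 0 h (SD, n = 3 each; log2 change -1.62, limma adjusted p = 0.00236). Its 0 h libraries were at 3.74, 2.77 and 9.48 FPKM, and without the highest, replicate 3, the log2 change was -1.18 and still passed the test. Rgs22, best known from testis, averaged 0.204 ± 0.0708 FPKM at 6 h and 1.08 ± 0.227 FPKM at 0 h (log2 change -0.79, limma adjusted p = 0.00392). Rgs1, another R4 gene of lymphocytes, reached 0.901, 1.27 and 1.02 FPKM at 6 h, against 0.349, 0.220 and 0.143 FPKM at 0 h, and was too low for the filter. In the limma fit without the filter it was called higher (log2 change 0.74, adjusted p = 0.00035). Leukocyte markers (6 of 13 tested, 5 below 1 FPKM in all libraries) summed to 14.2 to 24.8, 18.0 to 24.9 and 12.6 to 17.7 FPKM at 0, 1 and 6 h; their part in these values was not tested. Rgs8, Rgs18 and Rgs20 stayed at or below 0.190 FPKM, and Rgs21 was listed at 0 throughout.

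**Figure D5:**
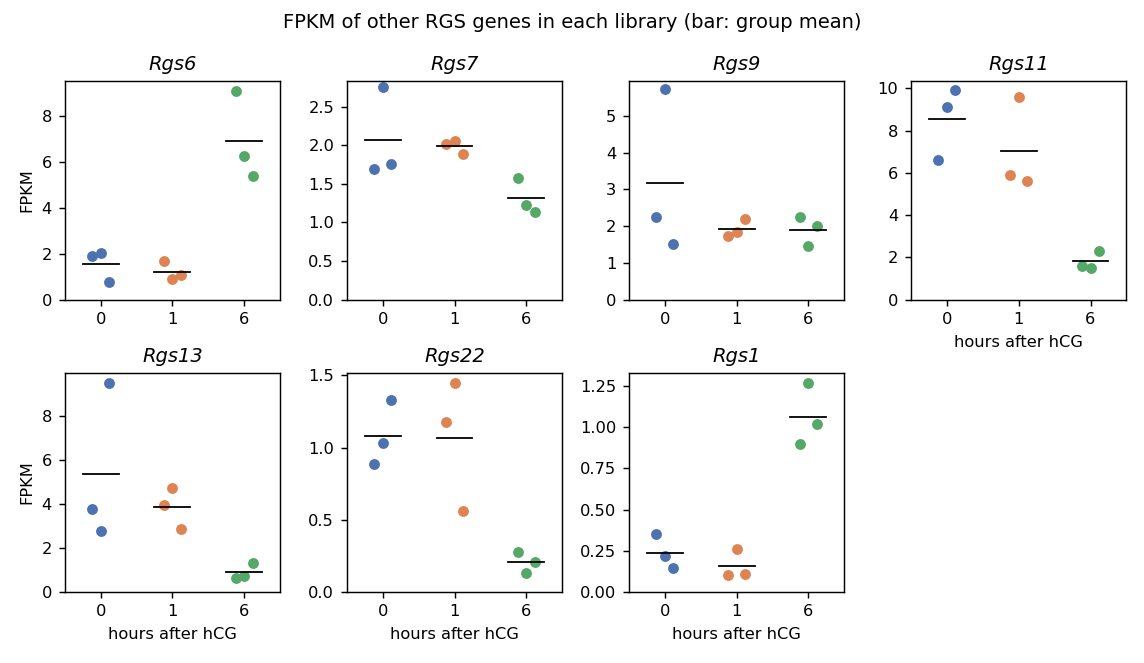
FPKM (vertical axis, a separate linear scale for each gene, from 0) of 7 further RGS genes at 0, 1 and 6 h after hCG (horizontal axis); points are libraries and bars means of 3. Rgs6 and Rgs1 are highest at 6 h, while Rgs11, Rgs13 and Rgs22 are lowest there.

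Several members have another RGS gene next to them on chromosome 1. Rgs2 and Rgs13 are 134492 bases apart with no other protein-coding gene between them, and at 6 h against 0 h Rgs2 rose while Rgs13 fell. On its other side, Uchl5, a deubiquitinase gene 191871 bases away, averaged 12.4 ± 0.362 FPKM at 1 h and 9.19 ± 0.136 FPKM at 0 h (SD, n = 3 each; log2 change 0.40, limma adjusted p = 0.00354). It reached 21.3 ± 0.774 FPKM at 6 h (log2 change against 0 h 1.13, adjusted p = 6.86e-07). Rgs4 and Rgs5 are 45663 bases apart. Nuf2, a kinetochore gene 124036 bases from Rgs5, fell to 14.1 ± 1.42 FPKM at 6 h, against 21.0 ± 1.39 FPKM at 0 h (log2 change -0.55, limma adjusted p = 0.00324). Rgs16, which stayed under 1 FPKM, lies 40025 bases from Rgs8, which was at or near 0 in all libraries.

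For the 3 members with the largest called changes, the genes with the most similar pattern were ranked by Pearson's r of log2(FPKM + 1) over the 9 libraries. The search covered 9781 genes that averaged at least 5 FPKM in a group, and left out predicted, clone-type and assembled names. The libraries share 3 times, so these values describe a shared time course, and no p is given. Rgs2 was most like Klf3, a Krüppel-like transcription factor (r = 0.995), Per1, a circadian clock gene (0.993), and Tiparp, an ADP-ribosyltransferase (0.992). Klf3 averaged 12.7, 40.7 and 36.6 FPKM at 0, 1 and 6 h, Per1 24.8, 100.3 and 83.8 FPKM, and Tiparp 22.9, 94.2 and 68.6 FPKM. Rgs3 was most like Adcy9, an adenylyl cyclase (r = 0.995), which averaged 41.4, 37.0 and 21.3 FPKM, followed by Fam53a and Strip2 (both 0.993). Rgs12 was most like Ccdc160 (0.989), Fam214b (0.989) and Zfp334 (0.988), and Ccdc160 averaged 6.28, 3.74 and 25.4 FPKM.

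The other parts of the G protein cycle were listed by role. Over all genes, 15.7% were called for 1 h against 0 h, 56.6% for 6 h against 0 h and 53.5% for 6 h against 1 h. The counts of these lists, here and in the paragraphs that follow, stand beside those shares. Of 15 G alpha genes, 11 were tested: 1 was higher at 1 h against 0 h, 5 were higher and 1 lower at 6 h against 0 h, and 5 higher and 3 lower at 6 h against 1 h. Their median changes were 0.14, 0.20 and 0.22. Gnai1 is a Gi alpha subunit, of the class that R12, RZ and most R4 proteins act on, while Rgs2 prefers Gq. Gnai1 averaged 7.40 FPKM at 1 h and 5.00 FPKM at 0 h (log2 change 0.49 ± 0.13 SE, limma adjusted p = 0.0305), a call that held in 10 of 17 alternatives. At 6 h it averaged 13.7 FPKM (log2 change against 0 h 1.30, adjusted p = 1.98e-05). Gna12, a G12 subunit, averaged 43.1 FPKM at 6 h and 23.6 FPKM at 0 h (log2 change 0.84, limma adjusted p = 9.14e-06). Gnao1, the Go subunit, averaged 10.3 FPKM at 6 h and 5.40 FPKM at 0 h (0.79, adjusted p = 0.0151); the largest row alone gave 0.63 (adjusted p = 0.0658). Gna14, a Gq-class subunit, averaged 1.40 FPKM at 6 h and 2.56 FPKM at 1 h (-0.56, adjusted p = 0.00462).

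Of 17 G beta and gamma genes, 11 were tested, with no call at 1 h against 0 h, 6 higher and none lower at 6 h against 0 h, and 4 higher and 1 lower at 6 h against 1 h (medians 0.10, 0.32 and 0.21). Gng12 averaged 55.2 FPKM at 6 h and 24.1 FPKM at 0 h (log2 change 1.16, limma adjusted p = 6.12e-06), Gnb4 14.8 FPKM at 6 h and 6.12 FPKM at 0 h (1.15, adjusted p = 8.03e-06), and Gng3 2.42 FPKM at 6 h and 1.11 FPKM at 0 h (0.70, adjusted p = 0.00096). Of 14 other genes for proteins with an RGS domain, 13 were tested: 1 was higher at 1 h against 0 h, 5 higher and 1 lower at 6 h against 0 h, and 6 higher and 1 lower at 6 h against 1 h (medians -0.01, 0.15 and 0.22). Arhgef12, an exchange factor that G12 and G13 subunits engage through that domain, averaged 51.8 FPKM at 1 h and 31.6 FPKM at 0 h (log2 change 0.69, limma adjusted p = 0.00162). At 6 h it averaged 89.7 FPKM (1.47 against 0 h, adjusted p = 1.88e-06). The sorting nexin Snx14 averaged 11.9 FPKM at 6 h and 18.6 FPKM at 0 h (-0.60, limma adjusted p = 3.58e-05), and its relative Snx25 11.4 FPKM at 6 h and 7.55 FPKM at 0 h (0.54, adjusted p = 0.00181).

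Of 7 other G alpha regulators, 6 were tested, with 1 higher and 1 lower in each comparison (medians 0.01, 0.13 and -0.06). Gpsm1, a GoLoco protein that holds Gi alpha in its GDP form, fell at 6 h to 21.7 FPKM, against 35.4 FPKM at 0 h (log2 change -0.68, limma adjusted p = 1.29e-05). It was the lower one in each comparison, and at 1 h against 0 h its call was lost with the largest row alone (adjusted p = 0.121). Ric8, a chaperone and exchange factor for G alpha subunits, averaged 14.3 FPKM at 6 h and 9.80 FPKM at 0 h (0.50, adjusted p = 0.000672). At 1 h, Ric8b averaged 15.7 FPKM, against 12.1 FPKM at 0 h (0.35, limma adjusted p = 0.0345), a call that held in 8 of 17 alternatives.

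Of 9 genes downstream of Gq, the class that Rgs2 prefers, 8 were tested. At 1 h against 0 h, 1 was higher (Trio, 23.6 FPKM at 1 h and 19.4 FPKM at 0 h, limma adjusted p = 0.0192, held in 12 of 17 alternatives). At 6 h against 0 h, 2 were higher and 4 lower, and the same counts held for 6 h against 1 h (medians -0.01, -0.31 and -0.24). The inositol trisphosphate receptor genes Itpr1 and Itpr2 fell at 6 h: Itpr1 averaged 41.3 FPKM at 6 h and 74.2 FPKM at 0 h (log2 change -0.83, limma adjusted p = 8.94e-05), and Itpr2 19.8 FPKM at 6 h and 34.6 FPKM at 0 h (-0.77, adjusted p = 4.62e-05). The phospholipase gene Plcb4 averaged 15.1 FPKM at 6 h and 7.25 FPKM at 0 h (0.96, limma adjusted p = 9.60e-06; the largest row alone gave 0.43, adjusted p = 0.0841).

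Of 34 genes for G protein coupled receptors, 21 were tested: 6 were higher and none lower at 1 h against 0 h, 8 higher and 9 lower at 6 h against 0 h, and 6 higher and 8 lower at 6 h against 1 h (medians 0.17, -0.03 and -0.18). Ptger4, a prostaglandin E2 receptor, was at 33.3, 21.9 and 33.1 FPKM at 1 h, against 1.08, 1.16 and 1.10 FPKM at 0 h (log2 change 3.82, limma adjusted p = 7.44e-07). As with Rgs2, replicate 2 was the lowest of the 1 h libraries; at 6 h Ptger4 averaged 2.47 FPKM. Ptgfr, the Gq-coupled prostaglandin F receptor, averaged 158 FPKM at 1 h and 45.3 FPKM at 0 h (1.79, adjusted p = 8.29e-06) and 49.3 FPKM at 6 h. Cxcr4, a Gi-coupled chemokine receptor, averaged 82.5 FPKM at 1 h and 11.1 FPKM at 0 h (2.75, limma adjusted p = 0.000114) and reached 316 FPKM at 6 h. Lpar1, a lysophosphatidic acid receptor, averaged 14.6 FPKM at 6 h and 2.98 FPKM at 0 h (1.97, adjusted p = 7.89e-06), and Fshr, the FSH receptor, 20.2 FPKM at 6 h and 93.0 FPKM at 0 h (-2.15, adjusted p = 3.69e-07).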

How the data were processed

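Transcript-level FPKM of 54759 rows per library were deposited by the authors; the submitters' processing notes name mm10 and HISAT2 2.0.5, while no source used here gives the program that made the FPKM, the annotation, its filters or the strand setting. Rows of a gene identifier were summed. In R 4.3.3, limma 3.58.1 (trended prior variance) was fitted to log2(FPKM + 1) of 14535 genes with at least 1 FPKM in 3 or more libraries, with 3 group means and 6 residual degrees of freedom. Python 3.11.15 and pandas 2.3.3 did the rest. The script was tested on simulated data. A single-gene exact test of 3 against 3 libraries cannot go below p = 0.1 and was not used. Alternatives were a pseudocount of 0.1, no filter, scaling to the mean FPKM sum, quantile normalization, the most abundant row alone, the 2 groups compared alone, no trend, a replicate block and each library left out; the row-level fit was added after seeing the data. The members and lists were chosen with earlier results of these data known. Named genes were all members, further RGS genes past the filter, up to 3 called genes with the largest change per list and comparison, the 3 most similar genes of 3 members, and coding neighbours of members next to another RGS gene (1 of them is not reported here); Gnb5 and Rgs1 were added after their values were seen.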

Additional observations from a re-analysis of the deposited data

How the results depend on the processing

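Rgs2 at 1 h and 6 h against 0 h (log2 changes of 2.59 to 3.01 and 2.37 to 2.63), Rgs3 at 6 h against 0 h (-1.87 to -1.39) and against 1 h (-1.42 to -1.14), and Rgs12 at 6 h (0.56 to 0.68 against 0 h and 0.74 to 0.89 against 1 h) kept their direction and call in all 18 alternatives each. Members lower at 1 h numbered 3 after scaling to the mean FPKM sum and 0 with the most abundant row alone. The most abundant row alone also left 1 member lower at 6 h against 0 h. Without the filter, 3 were higher at 6 h against 0 h (Rgs2, Rgs12 and Rgs4) and 2 at 6 h against 1 h (Rgs12 and Rgs4). That fit held 21422 genes. It called 4531 higher and 4299 lower at 6 h against 0 h, and 4148 higher and 4001 lower at 6 h against 1 h. With single libraries left out, members lower at 1 h ranged from 0 to 1 and members lower at 6 h against 1 h from 1 to 2. Over all genes, 1 h against 0 h gave 1407 higher and 869 lower, which became 1002 and 2634 after scaling and 1148 and 1233 after quantile normalization; with single libraries left out, 904 to 1601 were higher and 295 to 1223 lower. The lowest of these, 904 and 295, came without replicate 3 of 1 h, and those with 407, 425, 320 and 336 lower without replicates 1, 2 and 3 of 0 h and replicate 1 of 1 h. The replicate numbers were not taken to pair the libraries: deviations of same-numbered libraries correlated at -0.078 to 0.147, not all above 0.1, and those of other numbers at -0.151 to 0.086. As a hint of pairing from the data, the same number gave the highest correlation in 12 of 18 matches of a library with another time. Each match had the 3 libraries of that time to choose from. A replicate block gave 1306 higher and 685 lower, changed no member's call, and left Ric8b at 1 h and Rgs7 at 6 h short of the threshold (adjusted p = 0.0608 and 0.0569).

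Uncalled differences near 0 changed sign. Rgs5 at 1 h against 0 h became 0.02 with quantile normalization and with the most abundant row (in both fits), 0.14 without replicate 1 of 0 h and 0.13 without replicate 3 of 1 h (range with single libraries left out -0.14 to 0.14). At 6 h against 0 h it became 0.05 without replicate 1 of 0 h (range -0.26 to 0.05), and against 1 h 0.00 without replicate 1 of either time (range -0.26 to 0.00). Rgs19 at 6 h against 1 h became -0.05 with the most abundant row (in both fits), -0.02 without replicate 3 of 1 h and -0.04 without replicate 1 of 6 h (range -0.04 to 0.07). Among the less stable calls of other genes, Trio at 1 h missed the threshold without replicate 1 or 2 of 0 h or replicate 1 or 3 of 1 h (adjusted p = 0.0695, 0.06, 0.0595 and 0.0704), and Ric8b without the same 4 or replicate 2 of 6 h (0.113, 0.0887, 0.120, 0.112 and 0.0516). Gnai1 missed it without replicate 1 or 2 of 0 h or 2 or 3 of 1 h (0.0968, 0.0986, 0.066 and 0.062), and Gnao1 at 6 h without replicate 2 or 3 of 6 h (0.0579 and 0.05). Rgs7 missed it without replicate 2 of 0 h, 1, 2 or 3 of 1 h, or 2 or 3 of 6 h (0.174, 0.0609, 0.0542, 0.0573, 0.121 and 0.133). The causes were not tested. Depth is unknown, so no limit can be given for the 4 members under 1 FPKM.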
